A study of Mus musculus with 6 samples.

Results

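The 35 genes described here are FoxO transcription factors, enzymes and regulators of the antioxidant defence, and subunits of the phagocyte NADPH oxidase. They were chosen by gene symbol, with no threshold on their values, and all 35 were found, with 1 row each, among the 19846 genes of the table. The study asked what CD74, a membrane protein to which the cytokine MIF binds, does in the maintenance of hematopoietic stem and progenitor cells. RNA was measured in CD34-/LSK cells, the fraction of lineage-negative, Sca-1+, c-Kit+ bone marrow cells that is enriched for hematopoietic stem cells (HSCs). The tested cells came from 3 untreated mice that lack CD74 (CD74-/-), and the cells they were set against came from 3 untreated WT mice. Both genotypes are labelled as strain C57BL/6, the mice of the study were 6 to 8 weeks old, and 1000 sorted cells entered each library. The 3 libraries of each genotype were taken as 1 mouse each, and whether these mice were littermates is not stated for the RNA libraries. The mice lack CD74 in all their cells, so that the genotype of the HSCs and that of their surroundings cannot be told apart.

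Reactive oxygen species (ROS) are made in mitochondria and by NADPH oxidases, and HSCs are known to depend on keeping them low. FoxO factors are transcription factors that are held out of the nucleus by Akt signalling and that, when nuclear, switch on genes for ROS removal and cell cycle arrest. Peroxiredoxins, glutathione peroxidases and catalase remove peroxides, superoxide dismutases turn superoxide into hydrogen peroxide, and the thioredoxin and glutathione systems supply the reducing power. The phagocyte NADPH oxidase makes superoxide and is best known from neutrophils and macrophages.

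The libraries held between 14390534 and 16198678 reads in genes. Values are normalized counts, that is, reads per gene divided by a size factor of the library. Cd74 had 46.0, 72.0 and 72.8 normalized counts in CD74-/- libraries, against 3287, 2459 and 3107 in WT libraries, as the labels say (log2 fold change -5.53, limma adjusted p = 6.2e-05 by Benjamini-Hochberg). Of 16 markers of stem and progenitor cells fixed for the sort, none was at 0 in any library, and 12 had negative log2 fold changes, with 0 past the test by limma or DESeq2. Without Cd34 and Cd48, which mark cells outside this gate or more mature progenitors and were the 2 with p under 0.05 before adjustment in limma, both higher in CD74-/-, the summed level of the other 14 was between 39213 and 63204 in CD74-/- and between 47394 and 58911 in WT libraries. Cd34 RNA was read in every library of this CD34- gate, at 11830, 9672 and 7097 normalized counts in CD74-/- and 6611, 6834 and 5240 in WT. CD74-/- replicate 3 stood apart from the other CD74-/- libraries and WT replicate 1 from the other WT libraries in many of the genes below, so that values without them are given where they matter.

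None of the 35 genes passed the test over all genes. Adjusted p ranged between 0.504 for Cybb and 0.989 for Sesn1 (limma on log2(normalized count + 1), Benjamini-Hochberg, n = 3 each), where the threshold was 0.05 and 0.0873% of the 14892 genes tested passed. Tests on the recovered reads called 0 members as well, where DESeq2 called 0.756%, edgeR 0.083% and limma-voom 0.0415% of all genes. Before adjustment, p was under 0.05 for 2 members, Txnip and Cybb, both lower in CD74-/- (4.6% of all genes were lower at that level), and for 0 higher (3.14% of all genes). The genotypes did not overlap in 5 members, all with CD74-/- below WT (7.47% of all genes), and 0 members had CD74-/- wholly above WT (5.35% of all genes).

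The 5 members were the oxidase subunits Cybb and Ncf1, the thioredoxin inhibitor Txnip, the superoxide dismutase Sod1 and the transcription factor Foxo4. The log2 fold change (CD74-/- over WT) was negative in 19 members and positive in 16, and its median was -0.12, against -0.03 over all genes tested. The 95% interval lay within -1 to 1 for 16 members, so that changes beyond 2-fold fell outside it, while it reached below -1 for 15 members and above 1 for 4. A p that misses the threshold leaves such changes possible for these genes.

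**Figure D1:**
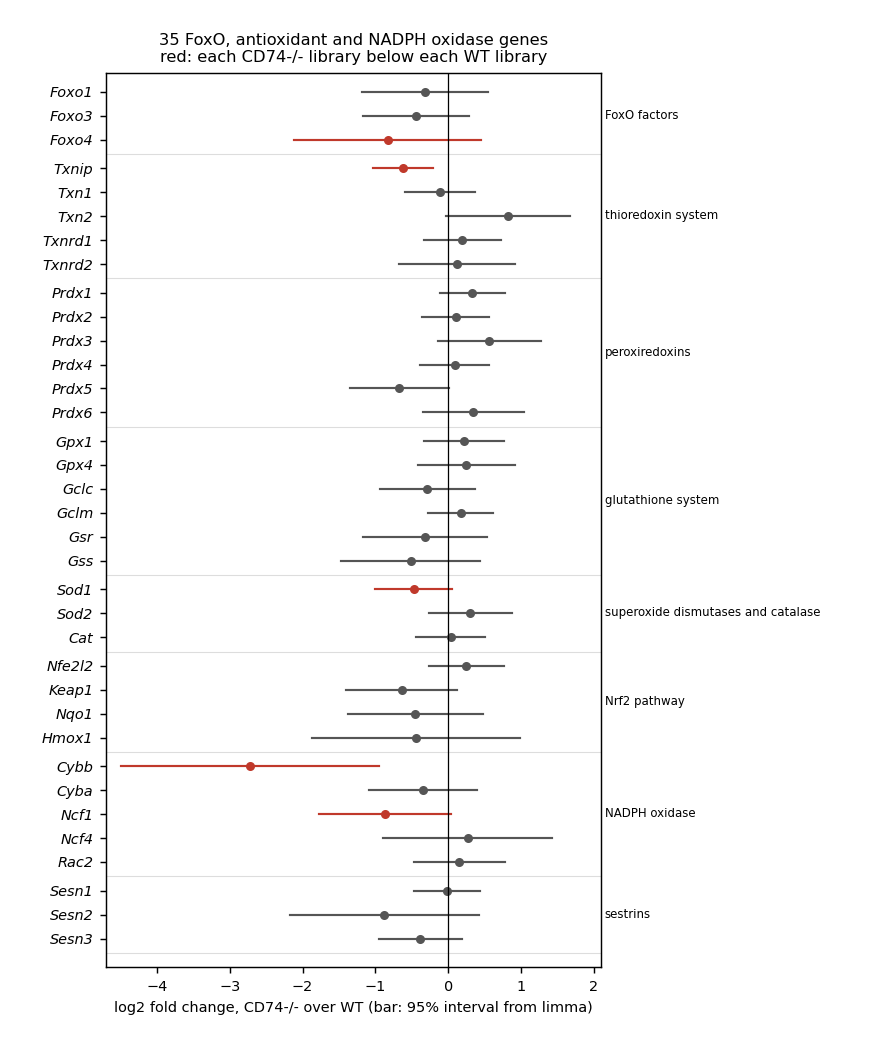
Log2 fold change of CD74-/- over WT (x axis) for each of the 35 genes, grouped by role, with points for the estimate and bars for the 95% interval from limma (n = 3 each). Red marks the 5 genes in which each CD74-/- library was below each WT library; the intervals of Txnip and Cybb alone lie below 0.

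The promoters of Txnip and Cybb are shown because these 2 genes had the lowest p among the members. RefSeq promoters (GRCm38.p6, 250 bases before to 50 after the start) were found for 28 of the 35 genes, and not for Foxo4, Prdx6, Gclc, Gsr, Hmox1, Ncf4 and Rac2. Both strands were searched for GTAAACA, a FoxO site, for TGACNNNGC, the core of the antioxidant response element bound by Nrf2, for GAGGAA, the core of the PU box bound by the myeloid factor PU.1, and for CCAAT. These 28 genes had 34 promoters. The FoxO site was found in 3.65% of all 32851 promoters and in 5.88% of the 34, those of Txnip and Sesn1. The CCAAT box was found in 37.4% and the PU box in 28.3% of all promoters, and in those of 14 and 7 members. In the 250 bases before the start below, capitals mark the FoxO site and 2 CCAAT boxes (1 on each strand) in Txnip, and 1 CCAAT box in Cybb. The PU box of Cybb lies after the start and is not shown.
Txnip (chr3:96557707-96557956, plus strand): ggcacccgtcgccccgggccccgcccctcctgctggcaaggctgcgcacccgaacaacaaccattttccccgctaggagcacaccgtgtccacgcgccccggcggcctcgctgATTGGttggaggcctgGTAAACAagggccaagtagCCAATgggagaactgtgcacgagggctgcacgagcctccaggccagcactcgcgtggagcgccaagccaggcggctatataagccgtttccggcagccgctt
Cybb (chrX:9469325-9469574, minus strand): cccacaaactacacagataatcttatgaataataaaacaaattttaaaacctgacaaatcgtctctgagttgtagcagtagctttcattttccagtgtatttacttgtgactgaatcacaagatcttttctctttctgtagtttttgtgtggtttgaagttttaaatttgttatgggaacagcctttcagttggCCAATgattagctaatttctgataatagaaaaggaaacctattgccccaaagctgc
The core TGACNNNGC was found in 12.4% of all promoters and in 17.6% of the 34 promoters of members. These were from 6 members, Gclm, Nfe2l2, Prdx1, Sesn2, Sod1 and Txnrd1. Windows before the start are shown for 4 of them, those whose core reads on the strand opposite to the gene, with the core in capitals.
Prdx1 (chr4:116685450-116685490, plus strand): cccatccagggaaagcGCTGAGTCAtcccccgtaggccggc
Txnrd1 (chr10:82859098-82859138, plus strand): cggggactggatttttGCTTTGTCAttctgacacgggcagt
Sod1 (chr16:90220690-90220730, plus strand): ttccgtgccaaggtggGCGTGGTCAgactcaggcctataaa
Gclm (chr3:122245407-122245447, plus strand): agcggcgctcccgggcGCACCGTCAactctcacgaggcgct
A match describes the letters only. Of these 4 genes, Prdx1 and Txnrd1 were higher in CD74-/- replicates 1 and 2 than in WT, Sod1 was lower in each CD74-/- library, and Gclm overlapped.

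The 3 FoxO factors had negative estimates, with none past the test. Foxo4, at X:101254528-101260873 (GRCm38, plus strand), had 31.3, 44.6 and 61.5 normalized counts in CD74-/- libraries, against 73.8, 89.6 and 75.7 in WT libraries. The groups did not overlap, and CD74-/- replicate 3 came nearest to WT. Its log2 fold change was -0.83 with a standard error of 0.58 (limma adjusted p = 0.735, Benjamini-Hochberg; two-sided exact permutation p = 0.1, the smallest that 3 against 3 allows). Foxo3, the FoxO factor best known for HSC maintenance, had 1153, 680 and 1551 in CD74-/- libraries, against 1871, 1381 and 1180 in WT libraries. Its CD74-/- replicates 1 and 2 were below all WT libraries and replicate 3 was not, as for Foxo1, which had 324, 262 and 689 in CD74-/- libraries, against 565, 483 and 416 in WT libraries. The log2 fold changes were -0.44 (SE 0.33) for Foxo3 and -0.32 (SE 0.39) for Foxo1. Both estimates turned on single libraries: without CD74-/- replicate 3 they were -0.71 and -0.73 (limma adjusted p = 0.242 and 0.23, Benjamini-Hochberg), and without CD74-/- replicate 2 they were -0.12 and -0.036.

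Txnip was the member with the most even separation of the genotypes. It binds and inhibits thioredoxin, and it is known as a gene that FoxO factors and glucose control. Txnip (3:96557957-96561883, plus strand) had 7618, 9081 and 10376 normalized counts in CD74-/- libraries, against 13888, 14397 and 13155 in WT libraries. Each CD74-/- library was below each WT library, with a mean of 9025 ± 1380 in CD74-/- and 13813 ± 625 in WT (SD, n = 3 each), 65.3% of WT. The log2 fold change was -0.62 (SE 0.19, 95% interval -1.04 to -0.21) and the limma adjusted p was 0.517 (Benjamini-Hochberg; two-sided exact permutation p = 0.1). Leaving out any 1 library kept it between -0.73 and -0.51. Of its exon sequence, 15.7% in words of 50 bases is shared with the antisense gene Gm15441, and the libraries keep no strand, so reads of the 2 cannot be told apart there.

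**Figure D2:**
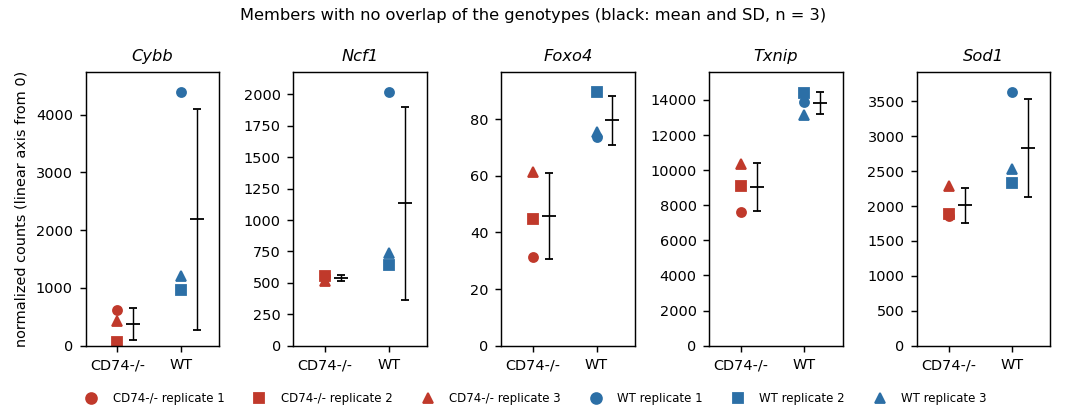
Normalized counts (y axis, linear from 0, a scale per gene) in each library for the 5 genes in which the genotypes do not overlap, CD74-/- in red and WT in blue, with the mean and SD in black (n = 3). Txnip has tight groups, while Cybb and Ncf1 have their highest WT value in replicate 1, at 4391 and 2017.

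The other thioredoxin system members did not separate the genotypes in all libraries. Txn2, the mitochondrial thioredoxin, had 6378, 6924 and 2331 normalized counts in CD74-/- libraries, against 2085, 3198 and 2805 in WT libraries. CD74-/- replicates 1 and 2 were above all WT libraries and replicate 3 was within them. Its log2 fold change of 0.82 (SE 0.38) was the highest among the members, with limma adjusted p = 0.654 by Benjamini-Hochberg, and it was 1.32 without CD74-/- replicate 3 (adjusted p = 0.0573), 0.60 without replicate 1 and 0.54 without replicate 2. Txn1, the cytosolic thioredoxin and the most abundant of the 5 per kilobase of exon, had 16228, 14399 and 15902 in CD74-/- libraries, against 22860, 14181 and 14562 in WT libraries, with WT replicate 1 high. Txnrd1 and Txnrd2, the reductases that recycle cytosolic and mitochondrial thioredoxin, had log2 fold changes of 0.19 and 0.12, with standard errors of 0.24 and 0.36.

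Peroxiredoxins, which remove peroxides, were the role in which CD74-/- replicates 1 and 2 stood above WT most often. Prdx1, the most abundant of them per kilobase of exon, had 22183, 21513 and 15326 normalized counts in CD74-/- libraries, against 14240, 16271 and 15801 in WT libraries. Prdx3, the mitochondrial peroxiredoxin, had 6303, 5975 and 2682 in CD74-/- libraries, against 2692, 3309 and 3496 in WT libraries. In both, CD74-/- replicates 1 and 2 were above all WT libraries, and replicate 3 was within the WT range for Prdx1 and below it for Prdx3. Prdx2 and Prdx6 showed the same order as Prdx3. The log2 fold changes of Prdx1, Prdx2, Prdx3 and Prdx6 were 0.33, 0.10, 0.57 and 0.35, and with 1 library left out they ranged between 0.24 and 0.50, between -0.0052 and 0.30, between 0.35 and 0.96, and between 0.14 and 0.74. Prdx4, the endoplasmic reticulum form, had a log2 fold change of 0.09. Prdx5 was the exception in sign, at -0.67 (SE 0.31), with 4373, 4728 and 2491 in CD74-/- libraries, against 8521, 4518 and 5431 in WT libraries, where the groups overlapped by 1 library of each genotype. Its 95% interval of -1.35 to 0.01 reached 0, it was -0.41 without WT replicate 1 and -0.38 without CD74-/- replicate 3, and 15.5% of its words are shared with the overlapping gene Trmt112.

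In the glutathione system, Gpx1 was the most abundant of all 35 genes per kilobase of exon, at 56235 normalized counts per kilobase in CD74-/- and 46552 in WT. It removes hydrogen peroxide with glutathione. Gpx1 had 99813, 91381 and 51908 normalized counts in CD74-/- libraries, against 70084, 69569 and 61591 in WT libraries, with CD74-/- replicates 1 and 2 above and replicate 3 below all WT libraries. Gpx4, which removes lipid peroxides, followed the same order with a log2 fold change of 0.25 (SE 0.30), and 34.7% of its words are shared with other genes, mostly the pseudogene Gpx4-ps2. Gclc and Gclm, the catalytic and modifier subunits of the enzyme that limits glutathione synthesis, were at -0.29 (SE 0.29) and 0.17 (SE 0.20). Gss, glutathione synthetase, and Gsr, glutathione reductase, were at -0.52 (SE 0.43) and -0.32 (SE 0.38), and the sign of Gsr turned without WT replicate 1, at 0.15.

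Sod1 and Sod2, the cytosolic and mitochondrial superoxide dismutases, differed in sign. Sod1 had 1853, 1880 and 2293 normalized counts in CD74-/- libraries, against 3630, 2336 and 2530 in WT libraries. The genotypes did not overlap, but CD74-/- replicate 3 and WT replicate 2 lay close together. The log2 fold change was -0.47 (SE 0.24; limma adjusted p = 0.668, Benjamini-Hochberg), and it was -0.28 without WT replicate 1. Sod2 had 4073, 5146 and 2702 in CD74-/- libraries, against 2759, 3150 and 3480 in WT libraries, with CD74-/- replicates 1 and 2 above and replicate 3 below all WT libraries. The difference in sign between the 2 genes was not tested. Cat, catalase, differed by less than its spread between replicates, at 1945 ± 135 in CD74-/- and 1904 ± 242 in WT (SD, n = 3 each), with a 95% interval of -0.44 to 0.51 on the log2 scale.

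In the Nrf2 pathway, Nfe2l2, which codes for Nrf2, the factor that switches on antioxidant genes, was the most abundant of 4 members per kilobase of exon. It had 2039, 2602 and 2726 normalized counts in CD74-/- libraries, against 1815, 2506 and 1890 in WT libraries, and the groups overlapped. Keap1, which holds Nrf2 for degradation, was at 66.5% of the WT mean (376 ± 134 in CD74-/- and 565 ± 81.6 in WT, SD, n = 3 each), with CD74-/- replicates 1 and 2 below all WT libraries. Its log2 fold change was -0.64 (SE 0.34), and -0.38 without CD74-/- replicate 2. The Nrf2 target genes Nqo1 and Hmox1 had log2 fold changes of -0.45 (SE 0.42) and -0.44 (SE 0.64).

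Of the NADPH oxidase subunits, Cybb and Ncf1 had the lowest values relative to WT. Cybb codes for the catalytic membrane subunit gp91phox (X:9435252-9487771, minus strand). It had 623, 65.9 and 426 normalized counts in CD74-/- libraries, against 4391, 967 and 1207 in WT libraries. Each CD74-/- library was below each WT library, with WT replicate 1 the highest and CD74-/- replicate 2 the lowest. Cybb had a log2 fold change of -2.72 (SE 0.79, 95% interval -4.49 to -0.96), the lowest among the members. Its limma adjusted p was 0.504 (Benjamini-Hochberg; two-sided exact permutation p = 0.1). Leaving out 1 library moved it between -3.35 and -1.74, and without CD74-/- replicate 2 it was -1.74.

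Ncf1, the cytosolic subunit p47phox, had 553, 552 and 513 normalized counts in CD74-/- libraries, against 2017, 641 and 738 in WT libraries. The CD74-/- values were nearly equal and below all WT values, and WT replicate 1 was far above the others. Its log2 fold change was -0.87 (SE 0.41; limma adjusted p = 0.654, Benjamini-Hochberg) and -0.35 without WT replicate 1. Cyba, the membrane partner p22phox and the most abundant subunit per kilobase, overlapped, with 6164, 5464 and 2404 in CD74-/- libraries, against 6667, 4855 and 5170 in WT libraries. Ncf4, the cytosolic subunit p40phox, and Rac2, the GTPase that activates the complex, had log2 fold changes of 0.27 (SE 0.52) and 0.15 (SE 0.28).

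Phagocytes and B cells also express Cybb and Ncf1, and the sort takes lineage-negative cells, which is meant to leave out mature myeloid, lymphoid and erythroid cells. RNA of markers of such cells was nevertheless read in all libraries. The summed level of 16 neutrophil markers was 160055, 38858 and 57277 normalized counts in CD74-/- libraries, against 1006369, 170822 and 243731 in WT libraries. S100a8, S100a9 and Camp held most of this sum. The 6 libraries stood in the same order by this sum and by Cybb. By Ncf1, CD74-/- replicates 2 and 3 stood the other way round, at 552 and 513. For 16 monocyte and macrophage markers, sums ranged between 11160 and 42670 in CD74-/- and between 32668 and 54816 in WT. For 12 B cell markers, they ranged between 1337 and 3370 in CD74-/- and between 3349 and 11187 in WT. Both sums overlapped between the genotypes, and both ordered the libraries otherwise than Cybb did. Lyz2 held most of the monocyte and macrophage sum. Cd79b held most of the B cell sum in CD74-/-, with means of 2105 in CD74-/- and 2260 in WT. CD74-/- lay wholly below WT in 8 of the 12 B cell and 6 of the 16 neutrophil markers (7.47% of all genes). Of the 16 monocyte and macrophage markers, 4 lay wholly below and 1 wholly above WT (5.35% of all genes were above). Log2 fold changes were negative for 15 of the 16 neutrophil, 14 of the 16 monocyte and macrophage and 12 of the 12 B cell markers. Limma called 0 of these (Benjamini-Hochberg), DESeq2 on recovered reads called 2 neutrophil and 2 B cell markers lower (Mmp9, Ly6g, Ebf1 and Pax5), and none of these markers was at 0 in all CD74-/- libraries. The sums of other lists went different ways. The sum of 15 erythroid markers was between 26171 and 39863 in CD74-/- and between 39876 and 60712 in WT libraries. Car2 held most of this sum in CD74-/-, with means of 28886 in CD74-/- and 24894 in WT. Of the 14 erythroid markers tested, 12 had negative and 2 positive log2 fold changes, with a median of -1.94. Limma called 2 of them lower (Hbb-bs and Hba-a2) and DESeq2 called 5. The sum of 10 dendritic cell markers lay the other way from the erythroid sum, between 5545 and 6760 in CD74-/- and between 4652 and 5505 in WT libraries. Flt3 and Bst2 held most of this sum, with means of 3434 and 2299 in CD74-/- and 2578 and 1903 in WT. Of the 9 dendritic markers tested, 6 had negative and 3 positive log2 fold changes, with a median of -1.27. DESeq2 called Siglech lower. The sums of 9 T and NK cell markers overlapped, between 5478 and 11913 in CD74-/- and between 3560 and 7362 in WT libraries, as did those of 9 megakaryocyte markers, between 4881 and 7597 in CD74-/- and between 6576 and 7901 in WT libraries. Nkg7 held most of the T and NK cell sum, with means of 8036 in CD74-/- and 5118 in WT. Of the T and NK cell markers tested, 3 were negative and 4 positive. The dendritic markers Siglech and Cd209a and the T cell markers Cd3g and Cd8a were at 0 in all CD74-/- libraries. The part of any of these cells in the values of Cybb and Ncf1 was not tested. In RNA from pooled cells, fewer cells of a type and less RNA per cell cannot be told apart.

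Sestrins, stress proteins that FoxO factors and p53 switch on, had negative estimates in all 3 members, with 0 past the test. Sesn1, the most abundant of them per kilobase, had 2952, 2997 and 3510 normalized counts in CD74-/- libraries, against 2807, 3664 and 3106 in WT libraries, with a log2 fold change of -0.01 (SE 0.20). Sesn2 had 75.3, 30.4 and 54.3 in CD74-/- libraries, against 122, 75.3 and 87.0 in WT libraries, so that its groups touched at 1 value of each genotype. Its log2 fold change was -0.88 (SE 0.58), and -0.53 without CD74-/- replicate 2. Sesn3 was at -0.38 (SE 0.26), with CD74-/- replicates 1 and 2 below all WT libraries and replicate 3 within them.

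**Figure D3:**
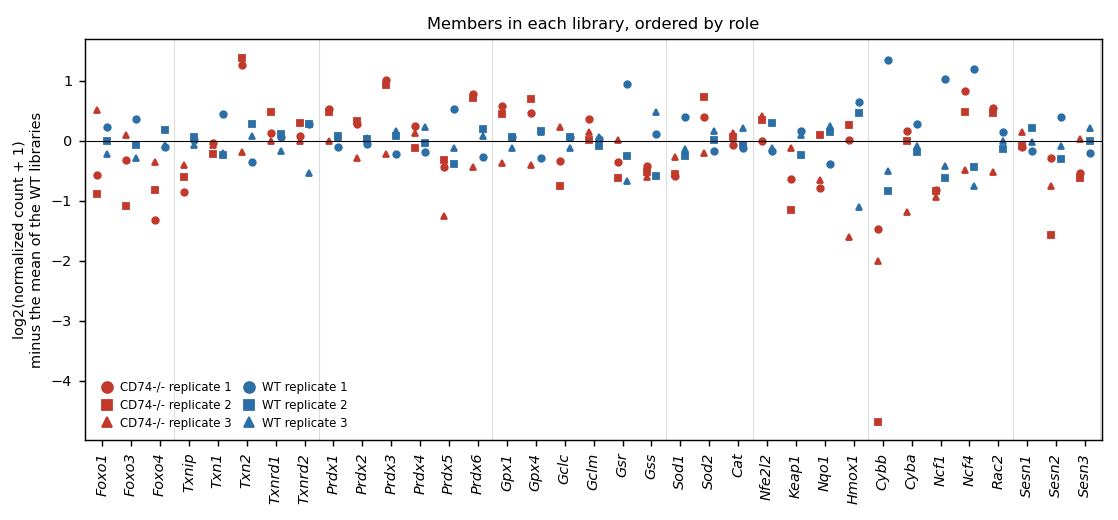
Log2(normalized count + 1) of each of the 35 genes minus the mean of its WT libraries (y axis), in each library, CD74-/- in red to the left of WT in blue, with grey lines between roles. The red triangles (CD74-/- replicate 3) lie away from the red circles and squares in Txn2, Prdx3, Prdx6, Gpx1 and Gpx4, and the Cybb value of CD74-/- replicate 2 is the lowest point.

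The 3 CD74-/- libraries thus did not move together in much of the antioxidant set. In 10 members (Txn2, Txnrd1, Prdx1, Prdx2, Prdx3, Prdx6, Gpx1, Gpx4, Sod2 and Rac2) CD74-/- replicates 1 and 2 were above all WT libraries and replicate 3 was not, a pattern that 13.9% of all genes tested had. Replicate 3 was below all WT libraries in 7 of the 10. In 5 members (Foxo1, Foxo3, Gclc, Keap1 and Sesn3) replicates 1 and 2 were below all WT libraries and replicate 3 was not, against 11.3% of all genes. Taken alone, CD74-/- replicate 3 was below all WT libraries in 18 members and above them in 4, where 28.9% and 27.6% of all genes were. Replicate 1 was below in 12 and above in 12 (30.4% and 28.2% of all genes), and replicate 2 was below in 11 and above in 12 (32.3% and 30.9%). Leaving out 1 library moved the log2 fold change by more than 1.5 times, or turned its sign, in 33 of the 35 members, all but Foxo4 and Txnip.

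Without CD74-/- replicate 3, 10 members lay wholly above and 10 wholly below WT, where 19.2% and 18.7% of all genes did so, and 0 passed the test. Leaving out WT replicate 1 together with CD74-/- replicate 3, a choice made after these values had been seen, gave the only call of a member among 17 alternatives. It was Txn2, at 1.15 with limma adjusted p = 0.0434 by Benjamini-Hochberg, and because both libraries were chosen on what had been seen in these data it is given as a value only. Over the other 16 alternatives the adjusted p of Txn2 was 0.0573 or higher.

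The length of the transcripts moved with the same libraries over all genes. Genes tested were put in 5 bins of equal number by exon length. In the bin with the shortest exon sequence (median 1228 bases), the median gene was at 0.04, 0.12 and -0.10 in CD74-/- replicates 1, 2 and 3 on the log2 scale relative to the median of the 6 libraries, against -0.026, -0.012 and -0.0050 in WT replicates 1, 2 and 3. In the bin with the longest (median 9318 bases), it was at -0.13, -0.13 and 0.15 in CD74-/- and between 0.02 and 0.04 in WT. Across the 35 members, the log2 value of replicate 3 minus the mean of replicates 1 and 2 went with exon length at a Spearman rho of 0.47 and a Pearson r of 0.48 with log2 length, against a rho of 0.21 over all genes, as descriptions over genes that share the same 3 libraries. The part of this in the members' values was not tested.

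**Figure D4:**
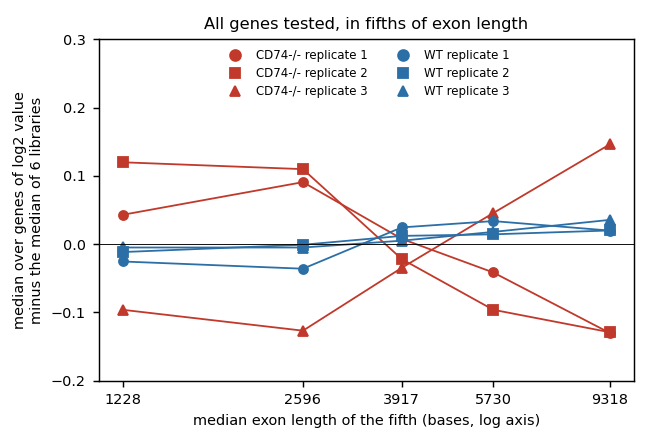
Median over genes of the log2 value minus the median of the 6 libraries (y axis), for the genes tested in 5 bins by exon length (x axis, log scale, median length of each bin in bases), one line per library. CD74-/- replicates 1 and 2 slope down to -0.13 and replicate 3 slopes up to 0.15, while WT libraries stay within 0.04 of 0.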

How the data were processed

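RNA of 6 libraries, 3 CD74-/- and 3 WT, was used. SMART-Seq v4 libraries, which keep no strand, were read single-end on a HiSeq 2500. The authors trimmed reads with cutadapt, dropped those under 30 bp, aligned with STAR (2.4.2a in the submitters' processing notes) to GRCm38 with Ensembl release 92, and counted with HTSeq. The deposited signal is a normalized count per gene, which the authors made by dividing reads by DESeq2 size factors. Reads were recovered by dividing each library's values by its smallest step, and 100% of the 101059 values above 0 came out whole (tolerance 0.02 normalized counts). A second sheet holds only the authors' cut-offs for their own comparison and was not used.

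Limma with a trend was run on log2(normalized count + 1), which understates changes of low genes, for 14892 genes with a mean of at least 10, with Benjamini-Hochberg adjustment over all. DESeq2, edgeR and limma-voom on recovered reads called 148, 12 and 6 genes. Other alternatives were pseudocounts of 0.5 and 5, no filter, a mean of at least 50, TMM and upper quartile scaling, the replicate number as a block, and each library left out. Leaving out 2 libraries together and the counts of members without overlap under other settings were added after seeing the data. The scripts were tested on simulated data. The work used limma 3.58.1, DESeq2 1.42.0 and edgeR 4.0.16 in R 4.3.3, and Python 3.11.15 with pandas 2.3.3, scipy 1.17.1, numpy 2.4.6 and matplotlib 3.10.9.

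Members and lists were chosen with earlier results of these data known. All 35 members are accounted for. Genes of other lists are named if called, or if p before adjustment was under 0.05 without overlap of the genotypes. Cd74 and Cd34 are named as checks. Flt3, Bst2, Nkg7, Car2, Cd79b, Lyz2, S100a8, S100a9 and Camp are named as the largest parts of a summed marker level. Positions and exon lengths came from GENCODE vM21 (GRCm38), promoters from RefSeq. No label says that libraries with the same number belong together; the p-values measure the spread between these libraries.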

Additional observations from a re-analysis of the deposited data

How the results depend on the processing

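Counts of called members were 0 in 16 of 17 alternatives and 1 (Txn2) where WT replicate 1 and CD74-/- replicate 3 were both left out, a setting added after seeing the data. That setting called 27 genes higher and 4 lower over all genes, against 6 and 7 with all libraries. DESeq2 called 49 higher and 99 lower, limma-voom 3 and 3, and the replicate block 21 lower. With 1 library left out, genes called higher ranged between 5 and 23 (23 without CD74-/- replicate 3) and lower between 1 and 34: 34 without CD74-/- replicate 1, 12 without CD74-/- replicate 3, and 1, 2 and 4 without WT replicates 1, 2 and 3. The causes were not tested. Members without overlap of the genotypes ranged between 6 and 10 lower and between 0 and 10 higher with 1 library left out, where the shares of all genes ranged between 10.9% and 18.7% lower and between 8.49% and 19.2% higher: 10 and 10 without CD74-/- replicate 3 (18.7% and 19.2%), and 9 lower without WT replicate 2 (12.6%). Upper quartile scaling gave 6 lower (7.48%). The median log2 fold change of the members ranged between -0.22 and -0.01.

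Whether the replicate numbers pair the libraries was not tested. Deviations of same-numbered libraries correlated at 0.12, 0.07 and 0.02, against -0.11 to 0.05 for libraries with different numbers. Each CD74-/- library correlated best with the WT library of its own number. In turn, WT replicate 3 correlated better with CD74-/- replicate 2 (0.05) than with its own number. These correlations are low and do not settle the question. With the replicate block, 0 members were called, and 4 lower and 1 higher had p under 0.05 before adjustment (5.04% and 3.44% of all genes); the lowest adjusted p was that of Cybb, 0.0554 (limma, Benjamini-Hochberg).

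Of the 35 members, 24 kept their direction in all 17 alternatives and 11 changed it in at least 1. With 1 library left out, their log2 fold changes ranged as follows: -0.24 to 0.11 for Txn1, -0.15 to 0.26 for Txnrd2, -0.0052 to 0.30 for Prdx2, -0.0055 to 0.20 for Prdx4, -0.66 to 0.15 for Gsr, -0.028 to 0.14 for Cat, -1.0 to 0.14 for Hmox1, -0.60 to 0.075 for Cyba, -0.11 to 0.86 for Ncf4, -0.038 to 0.50 for Rac2 and -0.10 to 0.090 for Sesn1. With WT replicate 1 and CD74-/- replicate 3 both left out, the sign turned to 0.089 for Txn1, -0.026 for Prdx4, -0.074 for Cat, 0.46 for Hmox1 and 0.21 for Cyba. Sesn1 also turned with TMM scaling (0.0034), edgeR (0.0019) and limma-voom (0.0031), and the other 10 turned only when libraries were left out. With 3 libraries of each genotype, the 95% interval lay within 2-fold in either direction for 16 of 35 members.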

Other observations

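Other genes of the oxidase family were also low. The 7 further NADPH oxidase genes tested all had negative log2 fold changes, with 0 past the test by limma or DESeq2, and their summed level was between 5043 and 6425 normalized counts in CD74-/- libraries and between 6766 and 7580 in WT libraries. Nox4, an oxidase catalytic subunit, had 9.78, 2.03 and 0 in CD74-/- libraries, against 38.5, 49.3 and 15.1 in WT libraries. Noxa1, an activator of Nox1, had 3.91, 51.7 and 0 in CD74-/- libraries, against 55.7, 52.0 and 60.6 in WT libraries.

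Of 28 FoxO target genes tested, 18 had negative and 10 positive log2 fold changes, with 0 past the test by limma or DESeq2. Gabarapl1, an autophagy gene, had 1428, 1145 and 1320 normalized counts in CD74-/- libraries, against 1542, 2158 and 2491 in WT libraries. Of 19 regulators of FoxO factors, 12 were negative and 7 positive, with 0 called by limma and 1, Sgk1, by DESeq2. Sgk1, a kinase that phosphorylates FoxO factors, had 72.4, 57.8 and 99.4 in CD74-/- libraries, against 448, 237 and 185 in WT libraries, with a log2 fold change of -1.84 (SE 0.48; limma adjusted p = 0.453 and DESeq2 adjusted p = 0.0278, both by Benjamini-Hochberg).

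Of 42 other antioxidant genes tested, 17 were negative and 25 positive, and of 11 other Nrf2 pathway genes 8 were negative and 3 positive, with 0 past the test by limma or DESeq2 in both lists. Of the 42, 2 were lower and 1 higher without overlap of the genotypes, where 7.47% and 5.35% of all genes were. Tkt and Blvrb, a transketolase and a biliverdin reductase, were the 2 lower, with log2 fold changes of -0.74 (SE 0.31) and -0.69 (SE 0.23). Tkt had its highest value in WT replicate 1, at 3976, against 1904 and 2067 in WT replicates 2 and 3. Oxr1, an oxidation resistance gene, was the 1 higher, at 0.51 (SE 0.21). Of the listed genes, Foxo6, Sod3, Cybc1, Nox3, Duox1, Duox2, Duoxa1 and Duoxa2 were not analysed here.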
